A study of Mus musculus with 4 samples.

Results

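In the PB3 mouse mammary tumor cell line, 18944 untreated cells were measured by single-cell ATAC-seq. Of these, 155 were assigned to chromatin clusters that, over all libraries together, were made up almost wholly of eribulin-treated cells. They were chosen from the authors' cluster numbers alone, as the untreated cells in clusters 0, 1, 5, 7, 10, 11, 12 or 13. The whole series held 43782 cells in 4 libraries, with 1 library for each combination of treatment and protocol. Untreated PB3 cells received no drug. The eribulin cells received 4 rounds of treatment, each of 72 h at 500 nM and then 48 h without drug. Both conditions were profiled in run 1 by scATAC and in run 3 by multiome, a protocol on single nuclei of which the chromatin data are used here. A group of 1 library has no replicate, cells of 1 library are not replicates of a condition, and no test between groups was made. All groups are cultures of a single cell line. The labelled cell type was not checked against marker genes, because values of single genes were not analysed here.

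Eribulin binds the ends of microtubules and blocks their growth, which arrests dividing cells. Lineage barcodes are DNA tags that a lentivirus inserts into a cell's genome and that every descendant inherits, so that cells with the same tag descend from the same infected cell. In ATAC-seq the transposase Tn5 cuts open chromatin, and the lengths of the fragments record whether the cuts fell in nucleosome-free DNA or on both sides of a nucleosome. The question was whether the untreated cells in eribulin clusters carry lineages found after eribulin, and how their barcodes, depth and fragment lengths compare. The choice by cluster number did not use these readouts. Depth and fragment lengths do come from the same sequenced fragments as the clusters.

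The lineages that carry the comparison of barcodes are shown first. A barcode is named by the numbers of its short and long part. In the sequences, 5′ to 3′, the short part of 14 bases and the long part of 30 bases are in capitals and the linker of 4 bases between them is in lower case. The first 3 are all the lineages that were called both in an untreated cell of the 8 clusters and in an eribulin cell. The last is the most frequent lineage of these untreated cells that was called in no eribulin cell, and was chosen after its counts were seen.
95-33662: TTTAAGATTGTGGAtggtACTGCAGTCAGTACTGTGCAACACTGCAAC
39-41529: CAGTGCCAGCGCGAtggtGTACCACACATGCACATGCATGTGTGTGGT
55-37135: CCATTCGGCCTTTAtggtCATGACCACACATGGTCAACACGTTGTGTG
69-89668: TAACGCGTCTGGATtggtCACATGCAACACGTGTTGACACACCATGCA
These 4 sequences differed from one another at 28 to 35 of their 48 bases. The barcodes of the untreated cells in the 8 clusters without an eribulin cell differed from the nearest barcode called in an eribulin cell at 14 to 27 bases.

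The 8 clusters were made up almost wholly of eribulin cells over all libraries together. A low share of untreated cells in them follows from this choice and is a description. The untreated scATAC library had 92 cells in these clusters, 0.983% (0.793 to 1.204) of its 9361 cells. The untreated multiome library had 63, or 0.657% (0.506 to 0.840) of its 9583 cells. Intervals are exact 95% binomial (Clopper-Pearson) intervals and cover counting error only. Cluster 15, which held cells of both treatments, is outside the choice. It had 33 further untreated scATAC cells and 106 multiome cells.

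The untreated scATAC cells were spread over all 8 clusters, with 24 cells in cluster 0, 20 in cluster 10 and 16 in cluster 12. Clusters 1, 13, 7, 11 and 5 had 9, 7, 6, 6 and 4. Of the 63 multiome cells, 41 lay in cluster 0, 12 in cluster 10, 6 in cluster 12, 3 in cluster 13 and 1 in cluster 11. Clusters 1, 5 and 7 had none, and the eribulin multiome library itself had only 19, 9 and 10 cells there. The untreated cells did not follow the proportions of the eribulin cells in the scATAC run. Cluster 0 held 26.1% of them there and 0.783% of the 16485 eribulin cells of the 8 clusters, whereas cluster 1 held 9.78% and 36.3%. With 24 untreated and 129 eribulin cells, cluster 0 was small in that run and not almost wholly eribulin. In the multiome run cluster 0 was the most frequent for both, with 65.1% of the untreated cells and 82.8% of the 7685 eribulin cells. The clusters were drawn on all libraries jointly, so these shares are a description.

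The 2 libraries of a run used some of the same 10x cell barcodes, the tags that mark a droplet. Of the untreated cells in the 8 clusters, 3 of 92 scATAC cells (3.26%, 0.678 to 9.23) had a cell barcode that also occurred in the eribulin scATAC library, against 212 of the 9269 other untreated cells (2.29%). In the multiome run it was 2 of 63 (3.17%, 0.387 to 11) against 121 of 9520 (1.27%). Both intervals include the share of the other untreated cells. Of these 5 cells, 1 had the same cluster as the eribulin cell with its cell barcode. That cell, in cluster 0, had 5060 cut sites and lay 10.5 UMAP units from its eribulin counterpart. None of the 155 untreated cells in the 8 clusters had a cell barcode of the other run. The 2 runs used different protocols, so this count is a description only.

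On the authors' UMAP the untreated cells of the 8 clusters did not form a group of their own. They lay along the strip that joins the untreated and the eribulin areas, in the eribulin areas, and far inside the untreated area. Map and clusters rest on the same peak data, so positions on the map are a description and no independent evidence.

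**Figure D1:**
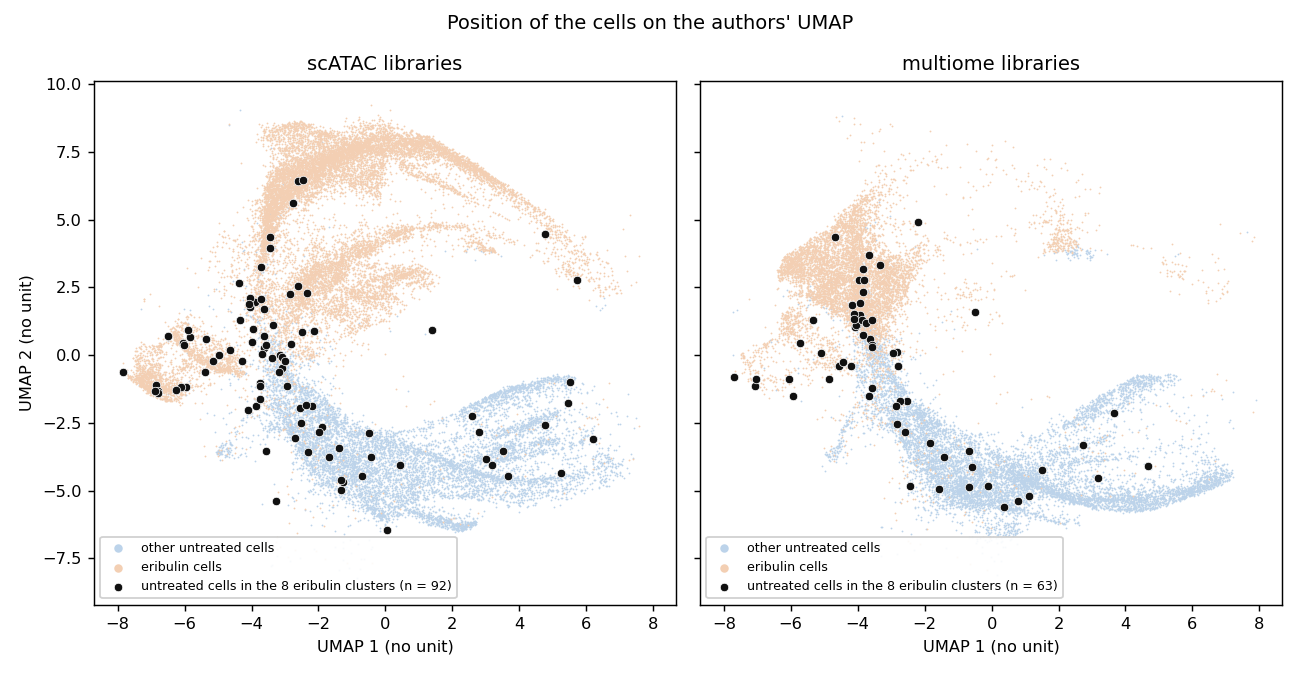
Each point is a cell at its deposited UMAP position (axes without unit), with other untreated cells in blue, eribulin cells in orange and the untreated cells of the 8 eribulin clusters in black, for the scATAC libraries (left, 92 black cells) and the multiome libraries (right, 63). The black cells are found in both areas and in the strip between them.

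The neighbours of each cell gave this a number. With both libraries of a run thinned to equal size, a mean of 46.3% of the 30 nearest neighbours of the untreated scATAC cells in the 8 clusters came from the eribulin library. It was 3.68% for the other untreated cells and 96.3% for the eribulin cells of these clusters. For the multiome cells the mean was 53.9%, against 6.63% and 93.7%. A mean near 50% did not arise from evenly mixed surroundings. In scATAC 37 of the 92 cells had at most 10% eribulin neighbours, 23 of them with none, and 30 had at least 90%. In the multiome library 20 of 63 cells had at most 10% and 23 had at least 90%.

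**Figure D2:**
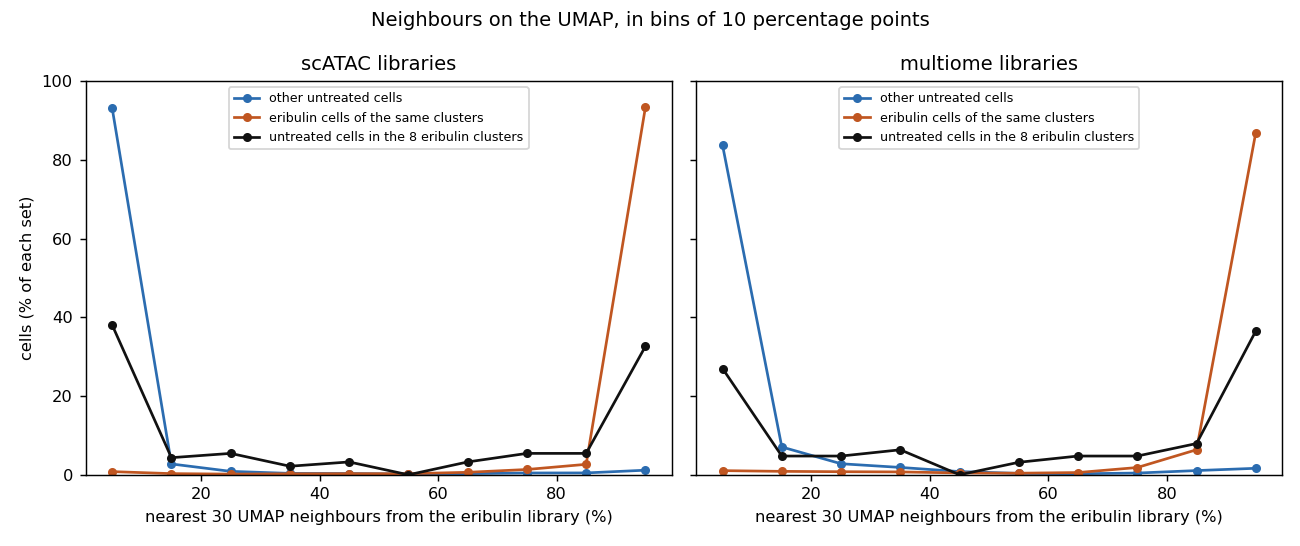
The share of each cell's 30 nearest UMAP neighbours that came from the eribulin library of its run (x axis, %, bins of 10 points) is plotted against the percentage of cells in each bin (y axis) for 3 sets of cells, after thinning both libraries to equal size. Untreated cells of the 8 clusters (black) have a peak at each end, with 37 scATAC cells at 10% or less and 30 at 90% or more.

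Many of these cells also lay apart from the cluster whose number they bear. A median of 3.33% of the nearest neighbours of the scATAC cells belonged to the cell's own cluster, against 80.0% for eribulin cells of the same clusters and 50.0% for the other untreated cells. For 41 of the 92 cells no neighbour did. These medians were not weighted to like cluster shares. In scATAC cluster 0 held 24 of the 92 untreated cells but 129 of the 16485 eribulin cells, so few neighbours of that cluster were available. How far cluster size had a part in the contrast was not tested. Among multiome cells the median was 20.0% against 90% and 46.7%, and 17 of the 63 cells had no neighbour of their own cluster. The name "eribulin chromatin state" therefore holds for these cells by cluster number only. For 43 scATAC and 35 multiome cells a majority of map neighbours also came from the eribulin library. The map rests on the same peak data as the clusters, so it is no independent ground for the name.

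Untreated cells of the 8 clusters had a nucleosome signal close to that of the other untreated cells. This signal divides the fragments that span a nucleosome by the nucleosome-free ones of the cell. In scATAC its values ran from 0.700 to 1.66 with a median of 1.03 (quartiles 0.949 and 1.103). The median of the other untreated cells was 1.07 (0.984 and 1.16), and that of eribulin cells in the same clusters was 0.755 (0.691 and 0.821). The difference from the other untreated cells was -0.034 and the difference from the eribulin cells was 0.280. Of the 92 cells, 90 (97.8%, 92.4 to 99.7) lay above the eribulin median, and 73 (79.3%, 69.6 to 87.1) lay above 0.934, the 95th percentile of the eribulin cells. The ranges of the 3 sets of cells overlap.

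The multiome library gave the same order with more overlap. There the signal ran from 0.577 to 1.32 with a median of 0.867 (quartiles 0.767 and 1.02). The other untreated cells had a median of 0.907 (0.816 and 1.01) and the eribulin cells of the same clusters 0.669 (0.607 and 0.739). The differences were -0.040 and 0.198. Of the 63 cells, 61 (96.8%, 89.0 to 99.6) lay above the eribulin median and 31 (49.2%, 36.4 to 62.1) above 0.883, the eribulin 95th percentile. Without cluster 0 the difference from the other untreated cells was 0.006, so its sign rests on that cluster. Without the 2 cells whose 10x cell barcode occurred in the eribulin library it was -0.016.

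**Figure D3:**
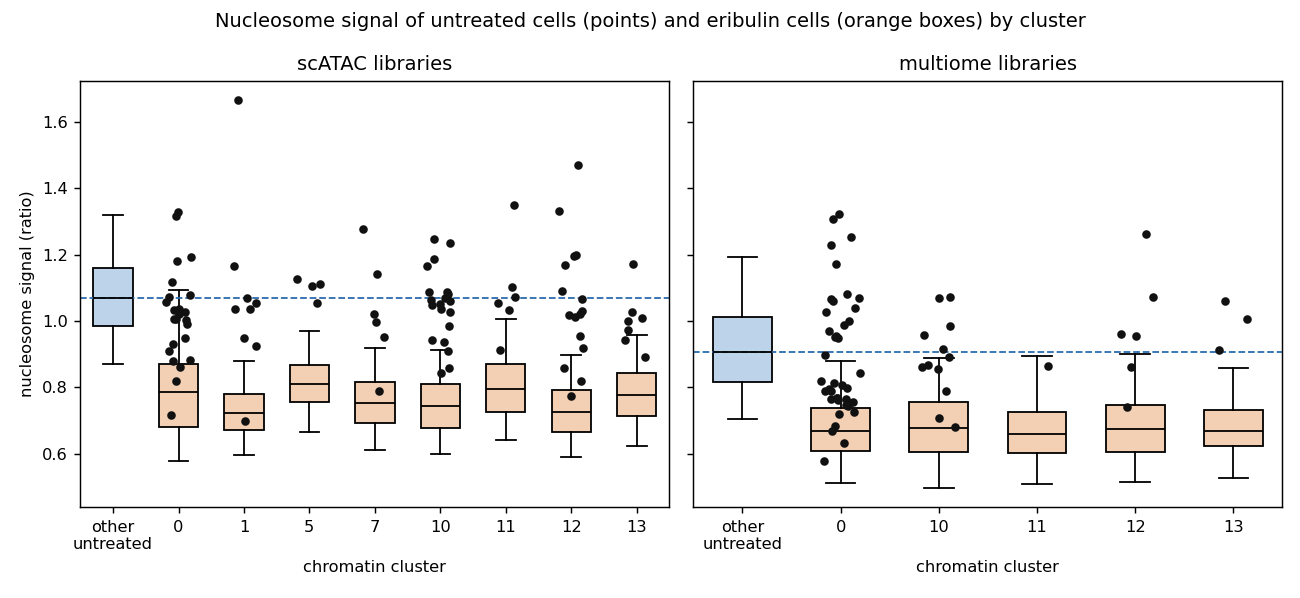
Nucleosome signal (ratio, y axis) of each untreated cell in an eribulin cluster (black points, by cluster on the x axis) beside eribulin cells of the same cluster and run (orange boxes: quartiles and median, whiskers at the 5th and 95th percentiles) and the other untreated cells (blue box, its median as a dashed line). Of the points, 90 of 92 in scATAC and 61 of 63 in the multiome run lie above the median of all eribulin cells of the 8 clusters.

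The higher signal than in eribulin cells was found cluster by cluster. In scATAC cluster 10 all 20 untreated cells lay above the upper quartile of the 1533 eribulin cells (0.812), with a lowest value of 0.844 and a median of 1.06. Cluster 12 had a median of 1.03 in 16 untreated cells against 0.725 in eribulin cells, and 15 of the 16 lay above the eribulin upper quartile. Cluster 0 had 1.01 in 24 untreated cells against 0.785. The 4 cells of cluster 5 had the narrowest range, from 1.05 to 1.13, against an eribulin median of 0.811. The 41 untreated multiome cells of cluster 0 had a median of 0.812 against 0.669, and 35 of the 41 lay above the eribulin upper quartile of that cluster. Those of cluster 10 had 0.879 (12 cells) against 0.678, and those of cluster 12 had 0.958 (6 cells) against 0.676.

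The signal was close in cells with many and with few eribulin neighbours. The 43 scATAC cells with a majority of eribulin neighbours had a median of 1.02, and the other 49 had 1.06. The multiome medians were 0.862 in 35 cells and 0.879 in 28. Within each of these 4 sets all but 1 cell lay above the eribulin median. Of the 4 cells below it, 3 had under 2000 cut sites. The scATAC cells were a cluster 0 cell of 1123 cut sites and a cluster 1 cell of 1137. The multiome cells were a cluster 0 cell of 1006 cut sites with barcode 16-28768, named here after its values were seen, and the cluster 0 cell of 5060 cut sites that carried 55-37135.

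Enrichment of cuts at transcription start sites, a measure of data quality, was close in all 3 sets. Its median was 5.10 in the scATAC cells of the 8 clusters, 4.99 in the other untreated cells and 5.04 in eribulin cells of these clusters. In the multiome run it was 4.90, 5.01 and 5.07.

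Untreated cells of the 8 clusters were shallower than the rest of their library. Their median was 5228 cut sites in scATAC (quartiles 2561 and 8804), against 7457 (4825 and 11440) in the other untreated cells. In the multiome library it was 3445 (1352 and 6574) against 5224.5 (3498 and 8032.5). In scATAC 63 of 92 cells (68.5%, 58.0 to 77.8) lay below the median of the other untreated cells, as did 43 of 63 (68.3%, 55.3 to 79.4) in the multiome library. Eribulin cells of the same clusters had medians of 6021 and 4218 cut sites, both above those of the untreated cells. Weighted to the cluster shares of the untreated cells, the eribulin scATAC median became 4895, below their 5228. Cluster by cluster the order varied. In scATAC cluster 10 the untreated cells had a median of 6370 cut sites against 4329 in eribulin cells, and in cluster 12 it was 4747 against 3176.5. In scATAC cluster 1 it was 3799 against 6562.5, and in multiome cluster 0 it was 1793 against 4056.

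A minority of these cells were very shallow, with lowest depths of 1041 cut sites in scATAC and 1006 in the multiome library. The lowest depths were similar in the other untreated cells (1037 and 1005) and in eribulin cells of the same clusters (1005 and 1002). The authors' minimum of 1000 is given in fragments in peaks and not in cut sites. With a limit of 2000 cut sites, chosen after the depths were seen, 17 of 92 scATAC cells (18.5%, 11.1 to 27.9) were shallower, against 2.23% of the other untreated cells and 7.01% of the eribulin cells of the same clusters. Among multiome cells 21 of 63 (33.3%, 21.95 to 46.3) were shallower, against 6.62% and 18.5%. All 21 of these multiome cells lay in cluster 0, which had 41 in all, and 10 of the 17 scATAC cells did. Clusters 10 and 12 of the untreated multiome library had no cell under the limit. Depths also reached high values, up to 30087 cut sites in scATAC and 27505 in the multiome library, the latter in a cell called doublet.

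**Figure D4:**
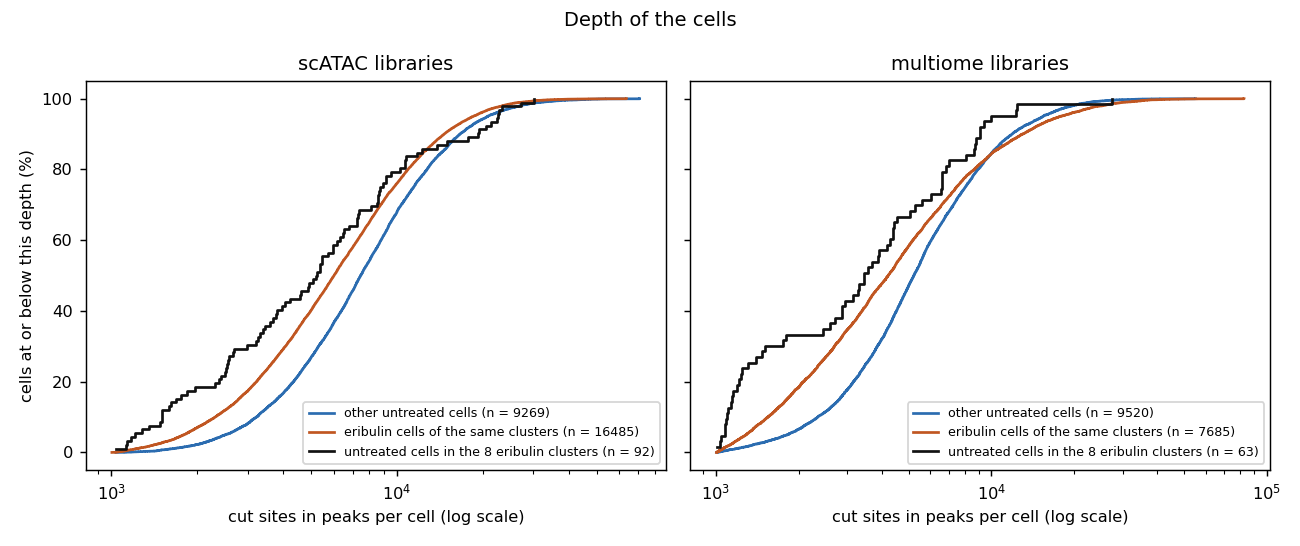
Cumulative share of cells (y axis, %) at or below each number of cut sites in peaks (x axis, log scale) for the untreated cells of the 8 clusters (black), the other untreated cells (blue) and the eribulin cells of the same clusters (orange), scATAC left and multiome right. At low depths the black curve is highest, with 18.5% of the scATAC and 33.3% of the multiome cells under 2000 cut sites.

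Like depth did not remove the difference in nucleosome signal from eribulin cells. Among cells between the quartiles of depth of the untreated cells in the 8 clusters, the scATAC medians were 1.03 in these cells (n = 46), 1.06 in the other untreated cells and 0.755 in eribulin cells of the same clusters. The multiome medians were 0.864 (n = 31), 0.900 and 0.668. Under 2000 cut sites they were 1.00, 1.07 and 0.752 in scATAC, and 0.7995, 0.821 and 0.668 in the multiome run. Whether depth had a part in the assignment of these cells to clusters was not tested.

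Lineage barcodes were called about as often in these cells as in the rest of the untreated multiome library. A single barcode was called in 31 of 63 cells (49.2%, 36.4 to 62.1), against 4741 of 9520 other untreated cells (49.8%) and 16.8% of the eribulin cells of the same clusters. The call rate in the untreated cells of the 8 clusters was thus above that of the eribulin cells with which they share a cluster. Cells with 2 or more barcodes, called doublet or multiplet, made up 2 of 63 (3.17%, 0.387 to 11) against 863 of 9520 (9.07%), a share inside that interval. These 2 cells, in clusters 0 and 11, had 27505 and 3286 cut sites. In scATAC, where few cells have a call, 2 of 92 cells (2.17%, 0.264 to 7.63) carried a single barcode, against 27 of 9269 (0.291%), and none was called doublet or multiplet. Where a count is 0, the limit given is 3 counts of the total, which here allows a share of up to 3.26%. The exact interval for this count reaches 3.93%.

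The 31 called multiome cells carried 30 distinct lineages. No lineage had more than 2 of these cells, and 29 had 1. The other untreated multiome cells carried 483 lineages in 4741 called cells, the most frequent of them in 182 cells (3.84%). In eribulin cells of the same clusters it was 22 lineages in 1290 called cells, the most frequent in 409 cells (31.7%). The sets differ in size, so these counts are a description. Of the 30 lineages, 29 were also called in other untreated multiome cells. The exception, 97-65657, was called in a single untreated cell and in no eribulin cell. The 2 called scATAC cells carried 10-62135 in cluster 7 and 56-29140 in cluster 10, and neither barcode was called in another cell of any library. These 3 lineages are named after their counts were seen.

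Lineages found in the eribulin libraries were carried by 4 of the 31 called cells (12.9%, 3.63 to 29.8). The other untreated multiome cells carried them in 614 of 4741 cases (12.95%, 12.01 to 13.9). An eribulin lineage is here any of the 27 barcodes called alone in at least 1 eribulin cell of either run. Many of these 27 rest on 1 or 2 eribulin cells. For the 13 barcodes with at least 3 eribulin cells, the shares were 4 of 31 (12.9%) against 4.89%, and for the 5 most frequent eribulin multiome barcodes they were 2 of 31 (6.45%, 0.791 to 21.4) against 1.62% (1.28 to 2.03). The same 5 barcodes accounted for 1176 of the 1290 called eribulin cells of these clusters (91.2%, 89.5 to 92.7). With 31 called cells, the interval includes the share of the other untreated cells for each of the 3 sets of lineages, and the sign of the difference depends on the set. In scATAC 0 of 2 called cells carried an eribulin lineage, against 5 of 27.

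Lineage 95-33662 was the most frequent after eribulin of those carried by these cells. It was called in 176 eribulin multiome cells, 6 eribulin scATAC cells and 6 untreated multiome cells. Its 1 untreated cell in the 8 clusters lay in cluster 10, and so did 58 of the 176 eribulin multiome cells (33.0%). That cell had 2603 cut sites and 96.7% eribulin neighbours, but 3.33% of its neighbours were in cluster 10. Its nucleosome signal was 0.986. Eribulin multiome cells of the same lineage had a median of 0.674 and ran from 0.338 to 1.00, a range that includes this cell. Of the other 5 untreated cells, 4 lay in cluster 3 and 1 in cluster 2.

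Lineage 39-41529 was called in 81 eribulin and 40 untreated multiome cells. Of the 81, clusters 0 and 11 had 34 each. Its 1 untreated cell of the 8 clusters was in cluster 0, while 34 of the 39 other untreated multiome cells were in cluster 2. It was shallow, with 1752 cut sites, and had a nucleosome signal of 0.797 and 73.3% eribulin neighbours, with 40% of its neighbours in cluster 0. The median signal of the lineage was 0.635 in eribulin and 0.961 in untreated multiome cells. Its eribulin multiome cells ran from 0.353 to 1.78, a range that includes the value of 0.797.

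Lineage 55-37135 was the only one with 2 untreated cells in the 8 clusters. It was called in 57 untreated and 11 eribulin multiome cells, and 43 of its 55 other untreated cells lay in cluster 2. Both cells had a nucleosome signal in the range of the eribulin cells of their lineage (0.516 to 0.754, median 0.640). The 57 untreated cells of the lineage ran from 0.577 to 1.38, with a median of 0.929. These 57 include the 2 cells, and the cluster 0 cell is itself the lower end. The overlap of the 2 ranges therefore rests in part on that cell, and the range of the 55 others is not given here. The cluster 10 cell had a signal of 0.681, 7012 cut sites and 96.7% eribulin neighbours, 90% of its neighbours being in cluster 10. The cluster 0 cell had a signal of 0.577, the lowest of all 155 cells, but no eribulin neighbour. It is also the cell of 5060 cut sites whose 10x cell barcode occurred in the eribulin library, where the cell with that tag lay in cluster 0, had no barcode call and had a signal of 0.665. Of the 4 cells with an eribulin lineage, these 2 alone fell below the eribulin upper quartile of 0.739. Of all 63 untreated multiome cells in the 8 clusters, 8 fell below it (12.7%, 5.65 to 23.5). The share was 9.13% in the other untreated multiome cells. The rest of these 8 cells had no eribulin lineage called. With only 4 cells, the count of 2 is a description and its difference from these shares was not tested.

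The other 27 lineages had no eribulin cell in either run. They had between 1 and 80 untreated multiome cells, with a median of 10. A count of 0 among the 1391 called eribulin multiome cells allows, by the same limit of 3 counts, a share of up to 0.216%, so lineages this rare may be present and undetected. Lineage 69-89668 was the most frequent, with 80 untreated cells. Its cell in the 8 clusters lay in cluster 10, whereas 60 of the 79 others lay in cluster 3. Of that cell's neighbours on the map, 26.7% were eribulin cells and 6.67% were in cluster 10.

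**Figure D5:**
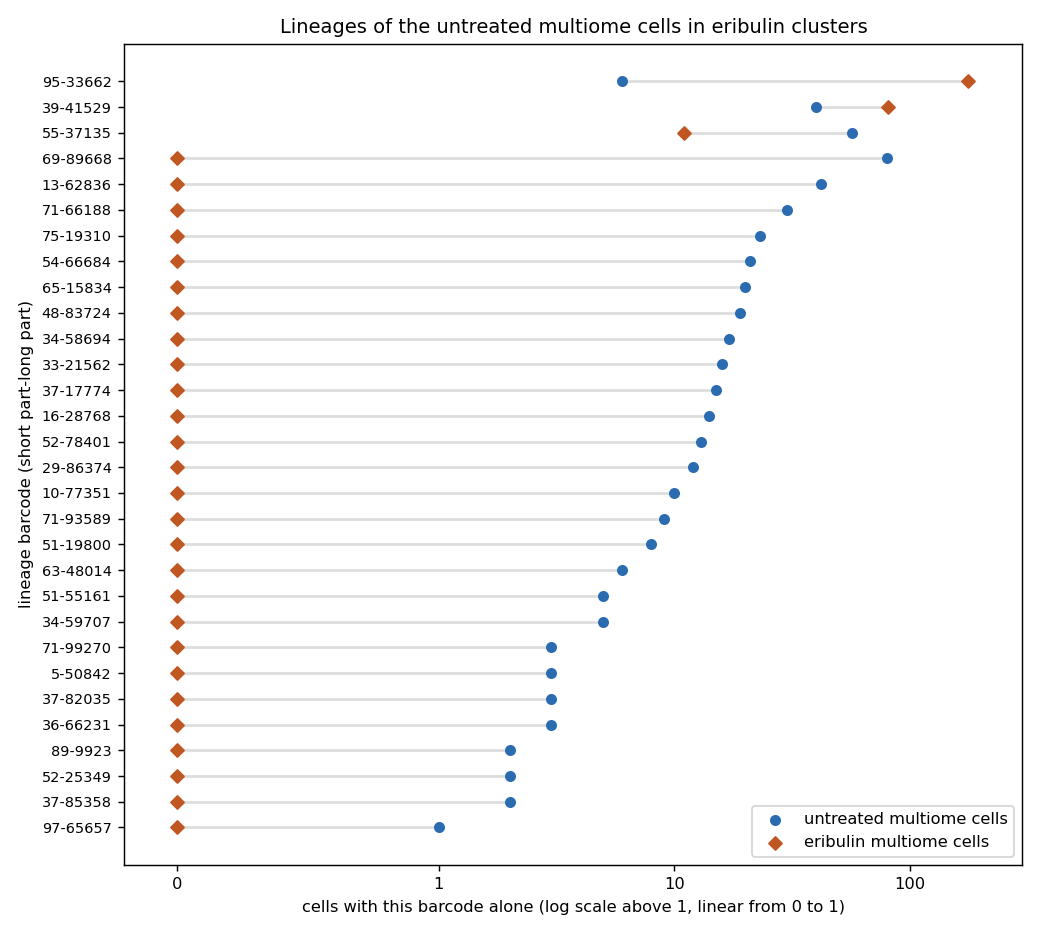
For each of the 30 lineages called in an untreated multiome cell of the 8 clusters (y axis), the number of cells with that barcode alone in the untreated (blue circles) and eribulin (orange diamonds) multiome library (x axis, log scale above 1 and linear below). Only 95-33662, 39-41529 and 55-37135 have eribulin cells, with 176, 81 and 11. The other 27 lie at 0.

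The untreated relatives of these cells are the 456 other untreated multiome cells with one of the 30 lineages. They lie outside the 8 clusters by definition, so only their spread over the remaining clusters is described. Cluster 3 held 144 of the 456 (31.6%), against 18.1% of the 4285 called untreated cells of all other lineages. With each lineage weighted equally the shares were 35.7% and 32.2%, a smaller difference. Lineage 69-89668 alone gave 60 of the 144 cells. Cluster 6 held 6.14% of the relatives against 15.7%, or 9.52% against 12.2% with equal weights. Cluster 2 held 32.2% against 36.8%. Of the 15 lineages with at least 10 such relatives, the most frequent cluster was cluster 3 for 5, cluster 2 for 4, cluster 8 for 3, cluster 9 for 2 and cluster 6 for 1.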

How the data were processed

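Per the labels and the design text, the authors made peak counts on mm10 using cellranger-atac 1.2.0 (scATAC libraries) or cellranger-arc 1.0.0 (multiome libraries). With Signac 1.1.1 they removed cells with fewer than 1000 fragments in peaks, among other filters, then clustered and mapped the rest on components 2 to 30. The integration of the libraries and the calling of barcodes are not described in the sources at hand. The deposited counts per cell (cut sites in peaks) are whole numbers and not normalized. The deposited nucleosome signal and TSS enrichment are ratios. A deposited map position is a score with no unit. The libraries held 8114 to 16724 cells and 49446970 to 127710435 cut sites in peaks.

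Medians, shares, neighbour shares (30 neighbours, fixed seed) and barcode comparisons were computed with Python 3.11.15, pandas 2.3.3, numpy 2.4.6 and scipy 1.17.1, and drawn with matplotlib 3.10.9. The functions for medians, neighbours and barcode names were tested on simulated data. No test was made, since each group is 1 library. Barcode names were brought to 1 form, and all 32 lineages of these cells were in the authors' list. Doublet calls were kept except in comparisons of single barcodes. Named are lineages with 2 or more of these cells and any of the 5 most frequent eribulin barcodes; others were named after their values were seen. Of the cell table's 37 columns 9 were used. The cells, lists and comparisons were chosen with earlier results of these data known.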

Additional observations from a re-analysis of the deposited data

Results flagged for a closer look

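The difference between untreated cells in the 8 clusters and the other untreated cells had opposite signs in the 2 runs for 2 measures, and neither contrast between runs was tested. The median enrichment at transcription start sites was higher by 0.10 in scATAC and differed by -0.11 in the multiome run. The share of cells with a single barcode was higher by 1.88 percentage points in scATAC, from 2 cells of 92, and differed by -0.594 points in the multiome run.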

How the results depend on the processing

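Of 54 alternatives, 41 kept the direction and lay within the counting interval of the main value. The share of untreated cells in eribulin clusters became 1.34% (scATAC) and 1.76% (multiome) with cluster 15 added, and 0.726% and 0.230% without cluster 0, by construction. The difference in cut sites from eribulin scATAC cells reversed to 333 with eribulin cells weighted to the clusters of the untreated ones. Among multiome cells with a majority of eribulin neighbours, a choice made after the data were seen, cut sites differed by -2621.5 from other untreated and by -1615 from eribulin cells. Without cluster 0 the multiome nucleosome signal difference from other untreated cells was 0.0063 (-0.016 without the cells whose 10x cell barcode the eribulin library shares), and the scATAC difference in shared 10x cell barcodes was -0.817 points. The multiome difference in eribulin lineages, -0.048 points, reversed to 8.01 (lineages of 3 or more eribulin cells), 4.83 (the 5 most frequent), 8.51 (cells between the depth quartiles) and 7.05 (without cluster 0). It was -5.27 with cluster 15 added (7.78% against 13.05%). The cause was not tested. The difference in nucleosome signal from eribulin cells kept its sign under every alternative run for it. No paired analysis was possible because the values come from no test: each run has 1 library per treatment, and all comparisons were already made within a run. With 31 called multiome and 2 called scATAC cells, lineage shares are imprecise.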
